A study of Homo sapiens with 3 samples.

Results

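The p53 pathway reaches into DNA repair and nucleotide supply through a small set of genes, and 10 of them were followed here in ribosome footprint libraries: XPC, DDB1, DDB2, POLH, RRM1, RRM2, RRM2B, ASCC3, TRIAP1 and AEN. They were chosen by name for their roles in nucleotide excision repair, lesion bypass, ribonucleotide reduction and related p53 functions. The choice used no value of these libraries as a criterion, although earlier results of these data were known when it was made. They are 10 of the 63241 genes in the count table, and all 10 were among the 19820 genes with enough counts to be tested. Ribosome profiling (Ribo-seq) reads the stretches of mRNA that ribosomes protect from nuclease, and the count of these footprints per gene was compared between HEK293T cells that expressed p53 as WT, G245S or R273H, with 3 dishes per group. The study used the assay to ask how mutant p53 alters ribosome occupancy across transcripts.

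All 3 groups shared the HEK293T background, a line from human embryonic kidney in which the viral SV40 large T antigen is present and can bind p53, and a short cycloheximide treatment before harvest to hold ribosomes on mRNA. Per the study's methods the lines were made stable by lentivirus and puromycin selection, whereas some labels describe transient transfection and, for the mutants, name the wt construct in the treatment; the groups were taken from the sample titles. G245S and R273H are hotspot substitutions in the DNA-binding domain of p53. The 3 dishes of a group were combined at reverse transcription, so group and pool cannot be told apart in any comparison, and the p-values are set against the variation among dishes of one pool. Cells without a p53 construct were not analysed here, and no matched mRNA measurement was used, so fewer transcripts and fewer ribosomes per transcript cannot be told apart here, nor can fewer expressing cells and lower expression per cell. The study reports separate RNA-seq of its stable lines, with lower p53 pathway expression in both mutants than in WT. Those RNA-seq data were not used here.

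Libraries held 18.7 to 24.6 M counts. The p53 targets CDKN1A and MDM2, used as a check of the labels, averaged 61.1 and 860.3 CPM (footprint counts scaled to a common library total) in WT, against 16.1 and 76.8 CPM in G245S and 13.9 and 76.7 CPM in R273H. All 8 HEK293T marker genes were present at 1 CPM or more in all 9 libraries, and together they held 1755 to 1794 CPM in WT, 1835 to 1847 in G245S and 1816 to 1828 in R273H. Of 8 markers of other cell types, 6 were below 1 CPM in all 9 libraries, with CD3E and HBB at 0. COL1A1 was the highest of them at 24.98 to 34.0 CPM, and the summed level of the 8 markers was 32.9 to 36.1 CPM in WT, 26.8 to 32.6 in G245S and 28.9 to 30.9 in R273H.

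Nucleotide excision repair removes bulky lesions such as those left by ultraviolet light. In its genome-wide branch, the DDB1-DDB2 complex and XPC find the damage, after which the strand is opened, cut, resynthesized and ligated. Lesions that remain when replication arrives can be bypassed by polymerase eta, the product of POLH. Ribonucleotide reductase makes the deoxynucleotides that repair and replication consume, and pairs its large subunit RRM1 with either RRM2, which serves dividing cells, or RRM2B, a small subunit known for induction by p53. ASCC3 is a helicase used in alkylation repair and in splitting collided ribosomes, TRIAP1 is a small mitochondrial protein that protects from apoptosis, and AEN is a nuclease that promotes apoptosis. XPC, DDB2, POLH, RRM2B, ASCC3, TRIAP1 and AEN have been described as genes that WT p53 activates, while DDB1, RRM1 and RRM2 are partner subunits in the same complexes.

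p53 binds DNA as a tetramer on a pair of half-sites, and the promoter windows of the genes, from 250 bases before to 50 bases after each RefSeq transcript start (GRCh38.p14), were searched for the p53 half-site consensus. A full site was taken as 2 half-sites with 0 or 1 base between them, and because the consensus is its own reverse complement a match on one strand is a match on both. Windows were available for 8 of the 10 genes. The closest full site in the windows of 5 genes is shown because it lets DDB2, AEN, XPC and TRIAP1, which were lower in both mutants, be read beside RRM1, which was not called. POLH was also lower in both mutants, but its closest site, with 6 mismatches, is not shown. Capitals mark the positions at which the consensus fixes cytosine or guanine.
DDB2: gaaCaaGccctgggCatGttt
AEN: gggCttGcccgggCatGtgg
XPC: gaaTttGcccagaCaaGcaa
TRIAP1: aggCatGcacggaCatGaag
RRM1: gcaTttCcgccgggCatGtcc

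The DDB2 site, at chr11:47214979-47214999 on the plus strand, had 0 mismatches to the consensus with a spacer of 1 base, and lies 6 to 26 bases after the start of the second of 2 RefSeq windows of the gene. Only 0.0199% of the 35116 windows of this length hold a full site without a mismatch. The first DDB2 window had no site closer than 5 mismatches, which is met by 85.6% of windows. AEN had 2 mismatches at chr15:88621306-88621325 (plus strand), a fit reached by 1.34% of windows, and XPC had 3 at chr3:14178570-14178589 (minus strand), reached by 9.75%. TRIAP1 at chr12:120446337-120446356 (minus strand) and RRM1 at chr11:4094632-4094652 (plus strand) both had 4 mismatches, a fit found in 41.3% of windows. A single half-site without a mismatch was present in 6.63% of windows and, among these genes, in DDB2, AEN and RRM1. DDB1 and RRM2 came no closer than 5 mismatches and POLH no closer than 6, which 99.4% of windows reach. These matches describe letters in a short window and are not evidence of binding.

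Of the 10 genes, 6 carried fewer footprints in both mutants: DDB2, AEN, POLH, XPC, TRIAP1 and ASCC3. RRM2 was slightly higher in both, and DDB1, RRM1 and RRM2B passed the test in neither. The tests were edgeR quasi-likelihood tests over all 19820 genes in which a Benjamini-Hochberg adjusted p under 0.05 made a call. Across all genes 12.1% were called lower and 12.6% higher in G245S against WT, and 14.6% lower and 14.2% higher in R273H against WT. Among the 6771 genes at least as abundant as RRM2B, the least abundant of the 10, 18.99% were called lower in G245S and 22.8% in R273H, compared with 6 of the 10 genes in each mutant. The median of the 10 log2 fold changes was -0.78 and -0.75, while the median of all genes tested was -0.00069 and -0.0024. The WT libraries serve in both comparisons, so the values of the mutants are not independent of each other.

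**Figure D1:**
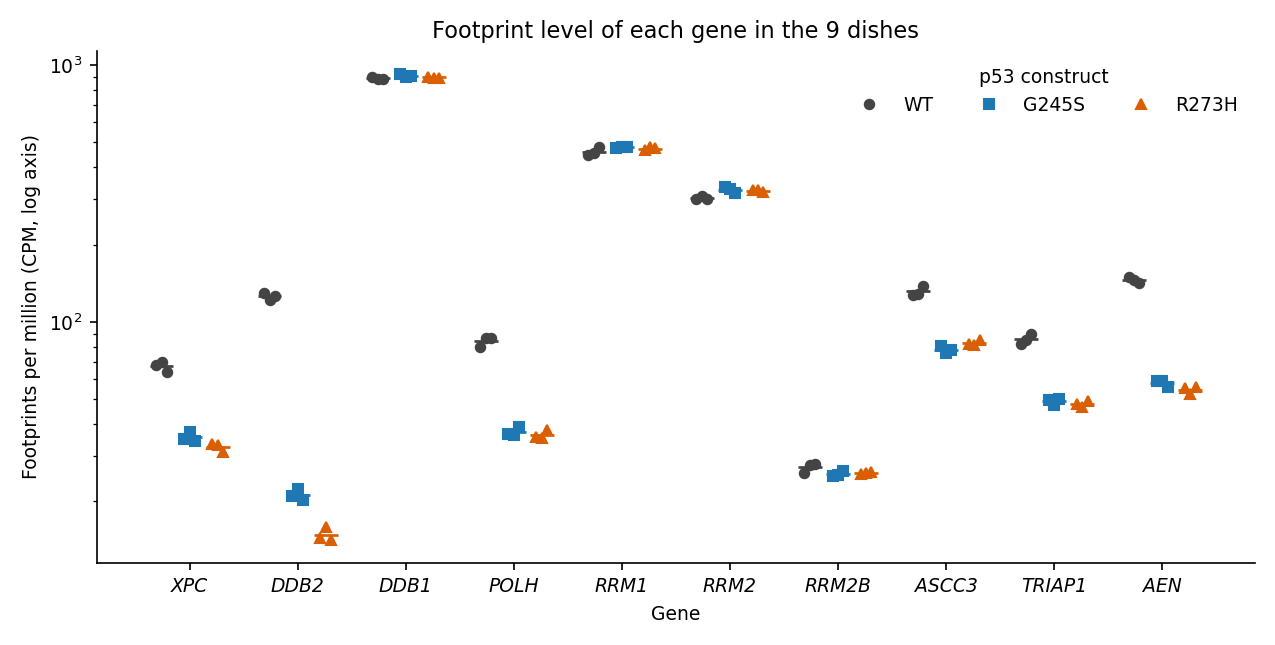
Footprint level of each gene in CPM (log axis) in the 9 dishes, with 1 point per dish and a line at the mean of each group of 3 dishes. XPC, DDB2, POLH, ASCC3, TRIAP1 and AEN lie lower in every mutant dish than in every WT dish, and DDB2 lies lower in every R273H dish than in every G245S dish.

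DDB2, the subunit of the UV-damaged DNA binding complex that contacts the lesion, showed the largest difference of the 10 genes. Its footprints stood at 129, 122 and 126 CPM in the WT dishes, at 20.9, 22.3 and 20.3 CPM in G245S and at 14.4, 15.9 and 14.2 CPM in R273H. No mutant dish came near the WT range, and the mutants did not overlap each other. Means were 126 ± 3.46 CPM in WT (SD, n = 3 dishes), 21.2 ± 1.00 CPM in G245S and 14.8 ± 0.908 CPM in R273H, which the fit gives as 16.8% and 11.8% of WT. The log2 fold change was -2.57 (SE 0.0480, edgeR adjusted p 1.1e-25) in G245S and -3.08 (SE 0.0491, adjusted p 1.43e-27) in R273H. Ranked from the most lowered gene, DDB2 was number 37 of 19820 in G245S and number 21 in R273H. Even in R273H the gene was supported by 329 to 392 counts per dish. DDB2 (ENSG00000134574) spans chr11:47214465-47239217 on the plus strand of GRCh38, with 10 exons and 1281 nt of coding sequence.

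Its partner DDB1, which links DDB2 to the CUL4 ubiquitin ligase and serves many other substrate receptors, stood at 900.1, 885 and 881 CPM in WT, 924, 900.3 and 909 CPM in G245S and 900.2, 895 and 894 CPM in R273H. R273H overlapped WT, and the lowest G245S dish lay only just above the highest WT dish. The log2 fold change was 0.036 (95% interval -0.0083 to 0.080, edgeR adjusted p 0.243) in G245S and 0.012 (-0.032 to 0.056, adjusted p 0.721) in R273H, so a change of more than 0.080 in size lies outside both intervals. Per kilobase of coding sequence, DDB2 carried 37.8 ± 0.805 footprints per 100 of DDB1 in WT (SD, n = 3 dishes), falling to 6.21 ± 0.347 in G245S and 4.41 ± 0.277 in R273H. This within-dish ratio needs no scaling between libraries. The exact two-sided permutation test of 3 dishes against 3 gave p = 0.1 for each mutant, the smallest it can give.

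XPC, the damage sensor that binds helix distortions, stood at 68.0, 69.6 and 63.6 CPM in WT, at 35.1, 37.3 and 34.4 CPM in G245S and at 33.5, 33.2 and 31.2 CPM in R273H. Every mutant dish was below every WT dish. The log2 fold change was -0.91 (SE 0.0492, edgeR adjusted p 1.31e-14) in G245S and -1.04 (SE 0.0482, adjusted p 3.99e-16) in R273H, or 53.04% and 48.7% of the WT level. Relative to DDB1 in the same dish and per coding kilobase, XPC fell from 9.15 ± 0.391 per 100 in WT to 4.74 ± 0.250 in G245S and 4.42 ± 0.157 in R273H. XPC (ENSG00000154767) lies on the minus strand at chr3:14145147-14178621, with 16 exons and 2820 nt of coding sequence.

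POLH, which encodes the polymerase that inserts bases opposite ultraviolet-induced thymine dimers, had 79.6, 86.2 and 86.5 CPM in WT. The G245S dishes held 36.6, 36.4 and 39.0 CPM, and the R273H dishes 35.5, 35.3 and 38.0 CPM. The mutants overlapped each other and were both separate from WT. The decrease was -1.17 (SE 0.0469, edgeR adjusted p 1.47e-17) and -1.21 (SE 0.0457, adjusted p 2.69e-18) on the log2 scale, leaving 44.5% and 43.1% of WT. POLH (ENSG00000170734) spans chr6:43576185-43620523 on the plus strand, with 11 exons and 2139 nt of coding sequence. Its promoter window held the weakest match to the p53 consensus of the 8 genes with a window, with 6 mismatches. Sites outside that window were not searched, and any relation between match and change was not tested.

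**Figure D2:**
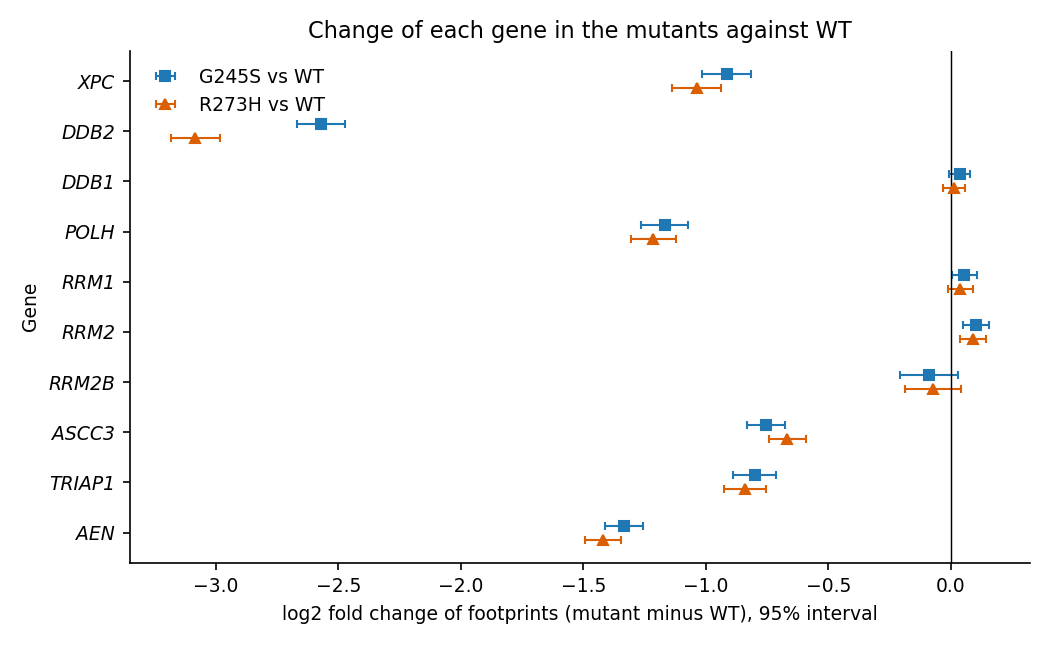
Log2 fold change of each gene in G245S (squares) and R273H (triangles) against WT, with the 95% interval from the edgeR fit on 9 libraries. The lowered genes, 6 in number, lie between -0.67 and -3.08 with intervals far from 0, whereas DDB1, RRM1, RRM2 and RRM2B lie between -0.088 and 0.10.

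AEN, an exonuclease that cleaves DNA and RNA during apoptosis, was the second most lowered of the 10 genes. It stood at 149, 146 and 142 CPM in WT, 58.6, 58.8 and 56.0 CPM in G245S and 55.1, 52.3 and 55.9 CPM in R273H. The mutant dishes lay far below WT, with a log2 fold change of -1.33 (SE 0.0371, edgeR adjusted p 1.87e-21) in G245S and -1.42 (SE 0.0364, adjusted p 1.76e-22) in R273H. These correspond to 39.7% and 37.4% of the WT level. AEN (ENSG00000181026) spans chr15:88621337-88632281 on the plus strand, with 4 exons and 975 nt of coding sequence, and no other annotated gene overlaps it.

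TRIAP1, which works with PRELI-like proteins to carry phosphatidic acid between the mitochondrial membranes, had 82.3, 84.6 and 89.6 CPM in WT, 49.6, 47.4 and 50.2 CPM in G245S and 47.7, 46.4 and 49.1 CPM in R273H. Both mutants were below every WT dish and overlapped each other. Its log2 fold change was -0.80 (SE 0.0428, edgeR adjusted p 1.26e-14) in G245S and -0.84 (SE 0.0417, adjusted p 1.75e-15) in R273H. TRIAP1 (ENSG00000170855, chr12:120443964-120446384, minus strand) has 2 exons and a coding region of only 228 nt.

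ASCC3, at the other end of the size range with 42 exons and 6606 nt of coding sequence, stood at 127, 129 and 138 CPM in WT. It held 80.3, 75.4 and 77.9 CPM in G245S and 81.9, 81.3 and 85.0 CPM in R273H. Every mutant dish was again below WT. The log2 fold change was -0.75 (SE 0.0375, edgeR adjusted p 2.06e-15) in G245S and -0.67 (SE 0.0363, adjusted p 1.58e-14) in R273H, the smallest decrease among the 6 lowered genes in both mutants. ASCC3 (ENSG00000112249) spans chr6:100508194-100881372 on the minus strand.

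Among all genes tested, AEN ranked 144 from the most lowered in G245S and 108 in R273H, POLH 187 and 158, XPC 326 and 229, TRIAP1 448 and 397, and ASCC3 506 and 654. The 6 genes therefore lay within the lowest 2.55% of genes in G245S and within the lowest 3.29% in R273H.

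**Figure D3:**
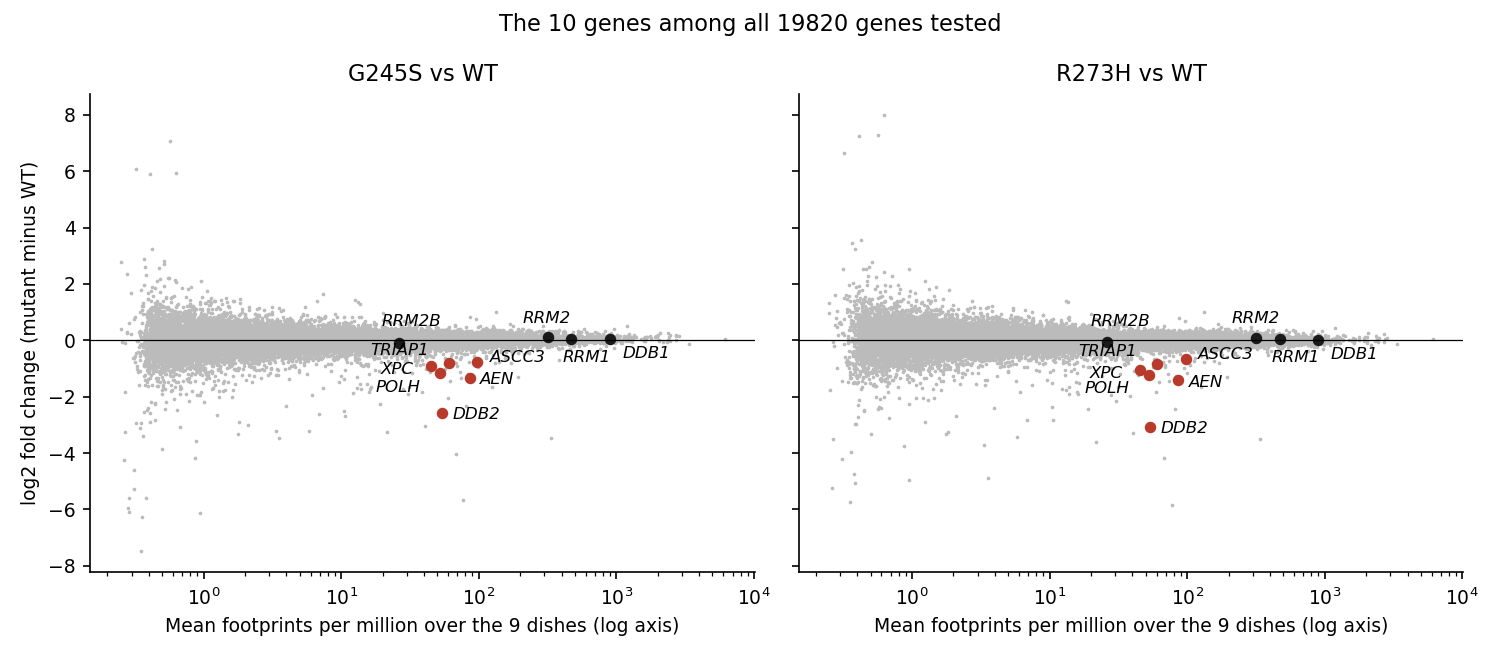
Log2 fold change against mean abundance (CPM over the 9 dishes, log axis) for all 19820 genes tested, with the 10 genes named. Red points are genes of the 10 called lower and black points are those not called lower. DDB2 at -2.57 and -3.08 lies well below the bulk of genes of similar abundance, and RRM2B, RRM1, RRM2 and DDB1 lie inside it.

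None of the 3 genes of ribonucleotide reductase was called lower in either mutant. RRM1, the catalytic large subunit, stood at 449, 454 and 480.0 CPM in WT, 475, 480.0 and 481 CPM in G245S and 467, 479 and 474 CPM in R273H. The groups overlapped, and the log2 fold change was 0.055 (95% interval 0.0028 to 0.107, edgeR adjusted p 0.118) in G245S and 0.039 (-0.013 to 0.091, adjusted p 0.27) in R273H. WT dish 3 was the highest of the WT dishes, and without it RRM1 was called higher in both mutants, at 0.089 (adjusted p 0.00639) and 0.072 (adjusted p 0.0231). RRM1 (ENSG00000167325) spans chr11:4094707-4138932 on the plus strand.

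RRM2, the small subunit that accumulates in S phase, had 301, 309 and 302 CPM in WT, 334, 328 and 317 CPM in G245S and 325, 327 and 319.5 CPM in R273H. All 6 mutant dishes exceeded all WT dishes, by a small amount. Its log2 fold change was 0.10 (SE 0.0259, edgeR adjusted p 0.00411) in G245S and 0.092 (SE 0.0256, adjusted p 0.00753) in R273H, and neither call was kept when testing for changes beyond 1.2-fold. RRM2 (ENSG00000171848, chr2:10120698-10211725, plus strand) has 3 annotated pseudogenes with which it can share reads.

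RRM2B was the exception among the genes described as activated by p53. It stood at 25.9, 27.6 and 28.0 CPM in WT, 24.98, 25.2 and 26.3 CPM in G245S and 25.66, 25.68 and 25.92 CPM in R273H. The groups overlapped at the lowest WT dish. With 461 to 635 counts per dish, the log2 fold change was -0.088 (95% interval -0.21 to 0.030, edgeR adjusted p 0.29) in G245S and -0.075 (-0.19 to 0.040, adjusted p 0.346) in R273H. The intervals leave room for a decrease of up to 0.21 and not for one of the size seen in ASCC3. RRM2B (ENSG00000048392) lies on the minus strand at chr8:102204502-102238961, with 9 exons and 1053 nt of coding sequence, and overlaps no other annotated gene.

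The share of small-subunit footprints that belonged to RRM2B was set out per kilobase of coding sequence, as a measure internal to each dish. RRM2B made up 8.69%, 9.01% and 9.30% in the WT dishes, 7.66%, 7.85% and 8.41% in G245S and 8.04%, 8.01% and 8.25% in R273H. The mutant dishes all lay below the WT dishes, and each exact two-sided permutation test gave p = 0.1, the smallest possible with 3 against 3. Both RRM2, which was higher, and RRM2B, which was not called, enter this share. RRM2 and RRM2B together amounted to 1.48 ± 0.0573 footprints per footprint of RRM1 in WT (SD, n = 3 dishes), with 1.51 ± 0.0411 in G245S and 1.52 ± 0.0237 in R273H, and these groups overlapped (exact permutation p = 0.6 and 0.5).

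**Figure D4:**
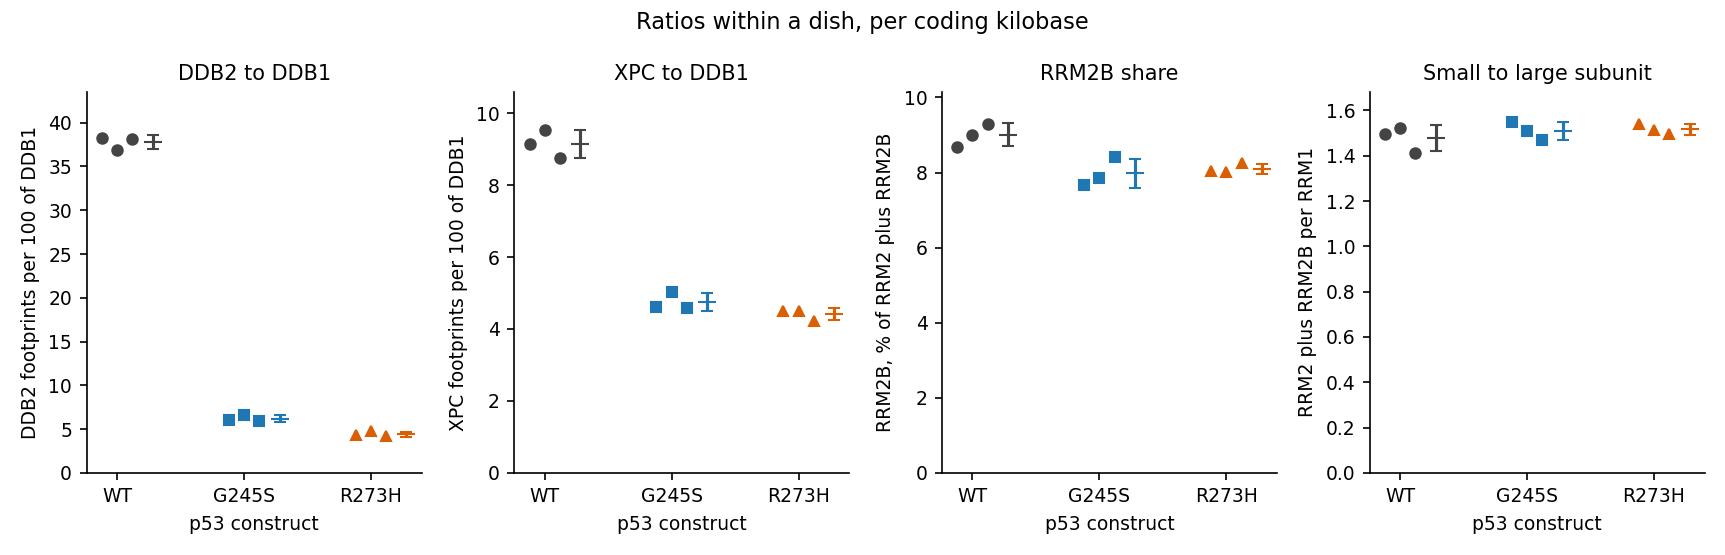
Ratios of footprints per coding kilobase within each dish, with 1 point per dish and the mean ± SD of 3 dishes beside them. DDB2 falls from 37.8 to 6.21 and 4.41 per 100 of DDB1, XPC falls from 9.15 to 4.74 and 4.42, the RRM2B share moves from 9.001% to 7.97% and 8.10%, and the ratio of small to large subunit overlaps between groups.

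On the scale of footprints per coding kilobase, which allows genes to be compared with each other, TRIAP1 was highest of the 10 genes in WT at 375 ± 16.5 CPM per kb (SD, n = 3 dishes). It was followed by RRM2 at 260.5 ± 3.51 and DDB1 at 259.9 ± 2.98, whose dishes overlapped, then RRM1 at 194, AEN at 149, DDB2 at 98.1 and POLH at 39.3 CPM per kb. RRM2B at 25.8 ± 1.06 and XPC at 23.8 ± 1.11 CPM per kb overlapped, and ASCC3 was lowest at 19.9 CPM per kb. In G245S the order opened with RRM2, DDB1, TRIAP1, RRM1 and AEN, followed by RRM2B at 24.2, POLH at 17.5 and DDB2 at 16.5 CPM per kb, of which POLH and DDB2 overlapped. R273H kept the same first 7 genes, but DDB2, at 11.6 ± 0.709 CPM per kb, stood last beside XPC at 11.6 ± 0.439, with overlapping dishes. DDB2 thus moved from above POLH, RRM2B, XPC and ASCC3 in WT to a level at or below POLH in the mutants. These levels take coding length as the length that was counted, which the sources used here do not give.

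Tested directly against each other, G245S and R273H differed at 2.59% of genes in either direction, and at 1 of the 10 genes. DDB2 was higher in G245S than in R273H by 0.51 on the log2 scale (SE 0.0643, 95% interval 0.38 to 0.64, edgeR adjusted p 4.35e-05), or 1.43 times. The other 9 genes ranged from -0.088 for ASCC3 (95% interval -0.17 to -0.0092, adjusted p 0.25) to 0.12 for XPC (0.015 to 0.23, adjusted p 0.24). AEN was 0.086 higher in G245S (0.0030 to 0.17, adjusted p 0.296). For DDB1, RRM1 and RRM2 the interval of the difference stayed within 0.068 of 0, while for RRM2B it ran from -0.13 to 0.10.

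In G245S every other tested gene of the pathway lists changed by less than the 6 lowered genes, whereas in R273H TYMS (-0.73) and LIG1 (-0.70) lay below ASCC3 (-0.67). Of 9 other damage recognition genes, 2 fell and 0 rose in G245S, and 3 fell and 1 rose in R273H, with a median log2 fold change of -0.032 and -0.094. These counts stand beside 12.1% lower and 12.6% higher of all genes tested in G245S, and 14.6% and 14.2% in R273H. Among the 6771 genes at least as abundant as RRM2B, 18.99% fell and 23.6% rose in G245S, and 22.85% fell and 24.2% rose in R273H. CETN2, the centrin that travels with XPC, had 121 CPM in WT against 100.4 and 98.7 CPM in the mutants, a log2 fold change of -0.27 (edgeR adjusted p 1.54e-06) and -0.30 (adjusted p 2.07e-07). ERCC6, which starts repair at stalled RNA polymerase, changed by -0.37 and -0.29. RAD23B, another partner of XPC, was not called in either mutant, at -0.037 and -0.043 (chosen after its values were seen).

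Of 31 genes in the later steps of excision repair, 7 fell and 8 rose in G245S, and 7 fell and 7 rose in R273H. These counts lie near the shares among the 6771 genes at least as abundant as RRM2B, of which 18.99% fell and 23.6% rose in G245S and 22.8% fell and 24.2% rose in R273H. LIG1, the ligase that seals the repaired strand, was lowered most, from 121 CPM in WT to 82.2 and 74.6 CPM in the mutants, a log2 fold change of -0.56 (edgeR adjusted p 7.12e-13) and -0.70 (adjusted p 2.32e-15). POLD4, a small subunit of polymerase delta, changed by -0.49 and -0.45, and shares its span with RAD9A and another coding gene. PCNA, the sliding clamp, changed by -0.25 and -0.29. Higher genes included GTF2H2 (0.29 and 0.24), ERCC2 (0.26 and 0.15) and the polymerase subunits POLD1 (0.25 and 0.18) and POLE (0.19 and 0.20). These higher genes were chosen after their values were seen.

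Around POLH, 16 other translesion synthesis genes included 2 that fell and 1 that rose in G245S, and 1 that fell and 3 that rose in R273H. HLTF, a helicase and ubiquitin ligase that acts on stalled forks, was higher by 0.35 in both mutants (edgeR adjusted p 2.68e-09 and 1.4e-09). REV3L, the catalytic subunit of polymerase zeta, had log2 fold changes of -0.19 (edgeR adjusted p 0.0405, G245S) and -0.30 (adjusted p 0.000748, R273H), and its G245S call was kept in only 7 of 18 alternatives. When each library's dependence on the coding length and GC content of genes was first taken out, 0 of the 16 fell and 2 rose in G245S, and 2 fell and 2 rose in R273H. Most of the list did not pass the test. Its counts stand beside 12.1% lower and 12.6% higher of all genes in G245S, and 14.6% and 14.2% in R273H.

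Around ribonucleotide reductase, 21 other genes of deoxynucleotide supply included 4 that fell and 3 that rose in G245S, and 4 of each kind in R273H. Of all genes tested, 12.1% fell and 12.6% rose in G245S, and 14.6% fell and 14.2% rose in R273H. Among the 6771 genes at least as abundant as RRM2B, 18.99% fell and 23.6% rose in G245S, and 22.85% fell and 24.2% rose in R273H. With the length and GC dependence taken out, 3 fell and 7 rose in G245S and 4 fell and 8 rose in R273H, and the median log2 fold change in R273H turned from -0.022 to 0.042. The same step moved calls over all genes, in G245S from 2402 lower and 2498 higher to 2351 and 3085. In R273H they went from 2900 lower and 2807 higher to 2671 and 3274. The medians of all genes became 0.010 and 0.011. TYMS, the thymidylate synthase, was lowered most, from 208 CPM in WT to 135 and 125 CPM in the mutants, a log2 fold change of -0.62 (edgeR adjusted p 2.67e-15) and -0.73 (adjusted p 3.51e-17). It has 2 pseudogenes and overlaps ENOSF1 on the other strand. CMPK1, which phosphorylates UMP and CMP, changed by -0.28 and -0.23. NME1, a nucleoside diphosphate kinase, changed by -0.23 and -0.21 but shares its span with the NME1-NME2 readthrough gene, so its value is uncertain, and with this dependence taken out it was -0.15 and -0.12.

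For ASCC3, 8 partners in the ASC-1 complex and in the handling of collided ribosomes included 1 that fell and 3 that rose in G245S, and 1 that fell and 2 that rose in R273H. ASCC1, a subunit of the same complex, was higher by 0.26 and 0.19, and RACK1, a scaffold on the small ribosomal subunit, by 0.19 and 0.11. EDF1, which senses collisions, changed by -0.21 in both, and by -0.15 and -0.11 with this dependence taken out. For TRIAP1, 4 PRELI-like genes included 0 that fell and 1 that rose in G245S, and 1 of each kind in R273H, with its partner PRELID1 at 0.15 and 0.12 (the R273H call was kept in 15 of 18 alternatives). For AEN, 7 of 8 related exonucleases had enough counts, and 1 was lower and 1 higher in each mutant, with PARN, the poly(A) ribonuclease, at 0.14 and 0.18 (the G245S call was kept in 14 of 18 alternatives). The calls in these 3 lists stand beside 12.1% lower and 12.6% higher of all genes tested in G245S, and 14.6% and 14.2% in R273H. Among the 6771 genes at least as abundant as RRM2B, 18.99% fell and 23.6% rose in G245S, and 22.85% fell and 24.2% rose in R273H. None of the tested partners of these 3 genes was lowered to the extent of ASCC3, TRIAP1 or AEN.

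**Figure D5:**
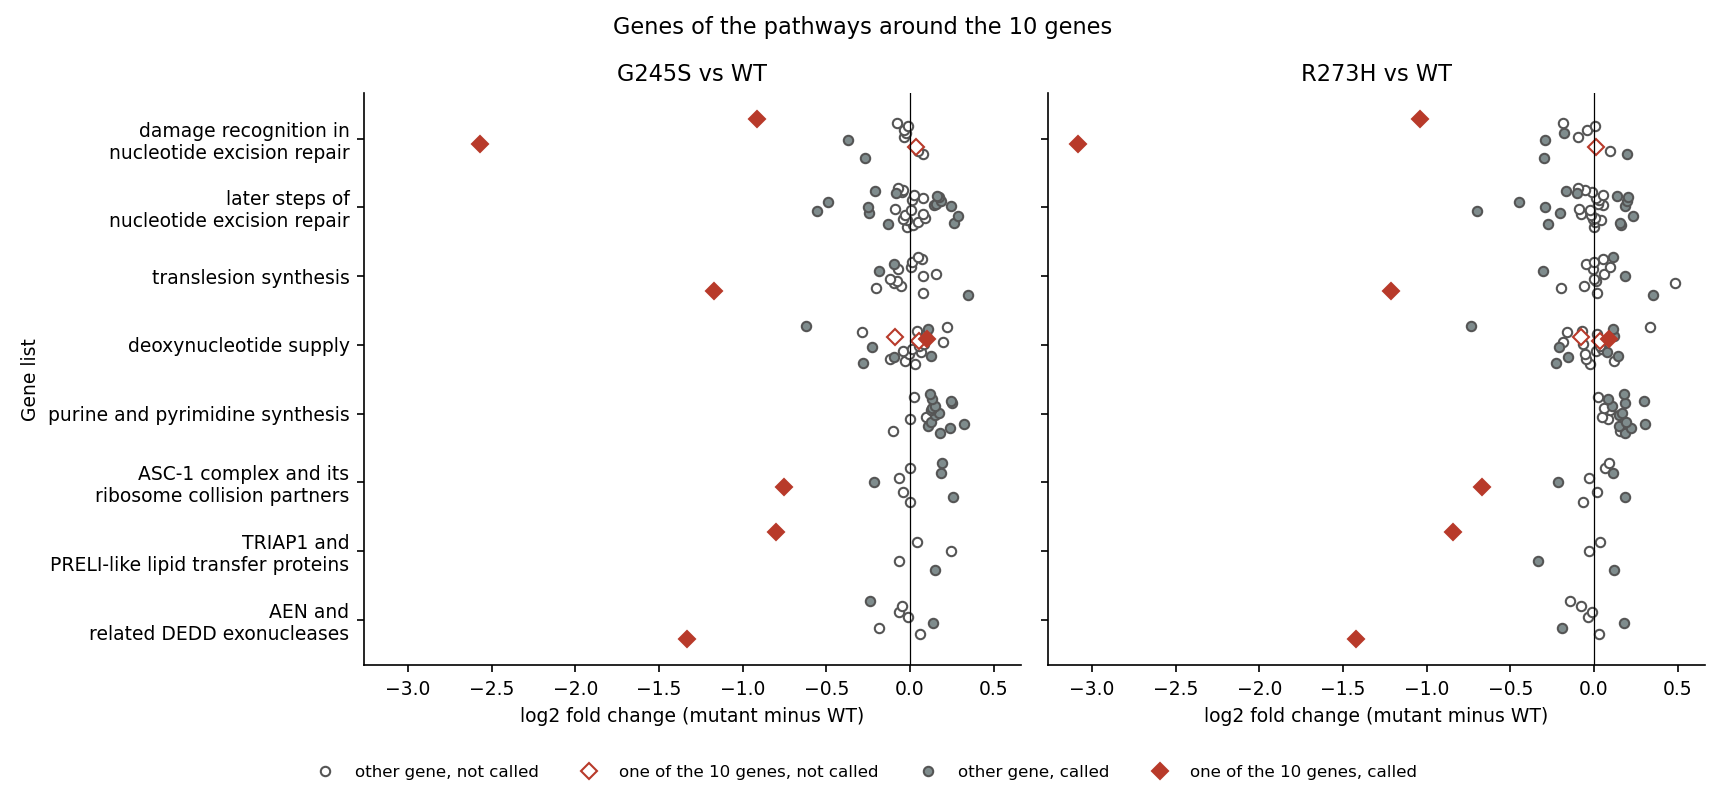
Log2 fold change of every tested gene in 8 pathway lists, with the 10 genes as red diamonds and the other genes as circles, filled where called (edgeR adjusted p under 0.05). Vertical offsets within a list only separate points. In G245S the 6 lowered genes lie below every circle, and in R273H the circles of TYMS (-0.73) and LIG1 (-0.70) lie below ASCC3 (-0.67).

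The 6 decreases kept their call under all 18 alternatives run. Relative counts also varied with coding length between the groups: over 10886 genes, the Spearman correlation of a library's deviation with coding length was -0.18 to -0.14 in WT, -0.012 to 0.12 in G245S and 0.14 to 0.20 in R273H. With GC content it was -0.18 to 0.26 in WT, -0.19 to 0.34 in G245S and -0.43 to -0.14 in R273H. The 6 genes stayed called with the length and GC trends removed together. Several spans overlap genes on the other strand, among them the coding genes GTPBP2 for POLH, TKFC for DDB1, ENSG00000111780 for TRIAP1 and ENSG00000268279 for XPC, and because the use of strand in counting is not given in the sources used here, part of their counts may belong to the neighbour.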

How the data were processed

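Ribo-seq libraries of HEK293T cells with WT, G245S or R273H p53 were analysed (3 dishes per group). Per the study's methods and the submitters' processing notes, reads were trimmed with Trim Galore and cutadapt, unique molecular identifiers were extracted with UMI-tools where present, rRNA was removed with SortMeRNA and reads were aligned to GRCh38 with STAR. The deposited table holds expected counts per gene, made by the authors without scaling for depth or length, and 61.5% to 63.7% of nonzero values were not whole, so reads shared by near-identical genes were divided by an estimate. The counting tool, its use of strand and the annotation release are not given in the sources used here. The gene that encodes the construct is not reported here.

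Expected counts were rounded to whole numbers. edgeR 4.0.16 (R 4.3.3) was then run with TMM scaling, the default filterByExpr filter, robust glmQLFit and a two-sided glmQLFTest. The 9 libraries entered a single model of group, leaving 6 residual degrees of freedom. Because the fit shares its estimate of spread across genes, the tests and intervals of the 10 genes used 27.7 degrees of freedom. The adjusted p is Benjamini-Hochberg over 19820 genes, and calls use a threshold of 0.05. CPM values use TMM-scaled library totals (factors 0.987 to 1.01); the biological coefficient of variation was 2.58%. No spike-in was used here, so every fold change is against the remaining genes of the same library. Coordinates, exons and coding lengths come from GENCODE v44 (GRCh38) and promoter windows from RefSeq. The 10 genes, the pathway lists and the alternatives were chosen with earlier results of these data known. All 10 genes are named; other list genes are named if called in the same direction in both mutants, at most 3 per list by mean log2 fold change, and only above a mean count of 100, and those outside this rule are marked. Alternatives were RLE and upper-quartile normalization, no filter on low counts, glmTreat, only the 6 libraries compared, a replicate block, unrounded counts, a removed trend in coding length and GC content, the DESeq2 1.42.0 Wald test and leaving out each dish. Values of some single genes of these lists are not reported here.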

Additional observations from a re-analysis of the deposited data

Results flagged for a closer look

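DDB2 differed between the mutants. In G245S it carried 21.2 ± 1.00 CPM (SD, n = 3 dishes) and in R273H 14.8 ± 0.908 CPM, against 126 ± 3.46 CPM in WT, and the direct test of G245S against R273H gave a log2 difference of 0.51 (SE 0.0643, edgeR adjusted p 4.35e-05). It was the only one of the 10 genes for which this test passed the threshold, where 2.59% of all genes did. All 3 G245S dishes were above all 3 R273H dishes. Over the 18 alternatives the difference stayed between 0.47 and 0.57, and the call was lost in 1 of them, the test for changes beyond 1.2-fold (adjusted p 0.111). Each mutant was its own pool at reverse transcription, so a difference between the mutants and one between the pools cannot be told apart.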

How the results depend on the processing

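Each result was recomputed under 18 alternatives. The 6 lower members of the 10 stayed called in G245S and R273H under all of them, and of 540 single-gene values 530 kept direction and call. Testing for changes beyond 1.2-fold (glmTreat) called 547 genes in G245S, 693 in R273H and 3 in G245S against R273H (main counts 4900, 5707 and 513), with 0 of the 10 genes in the last, and it lost RRM2 in both mutants. DESeq2 called 3079 and 3573 genes against WT. With the dish number as a replicate block, 1262 genes differed between the mutants, the same 6 of the 10 genes were lower in each mutant, DDB2 still differed between the mutants, and RRM1 was called higher in G245S (0.055, adjusted p 0.0329) beside RRM2. The labels do not say that dishes of the same number shared a batch, and the main model left the number out. In the counts, however, same-numbered dishes of different groups resembled each other more than others did. They correlated at 0.0437 to 0.234 over 12656 genes and other pairs at -0.19 to 0.060. In 17 of 18 checks a dish was closest to its own number. Leaving out 1 dish gave 162 to 712 genes in G245S against R273H, with 162 and 204 without G245S dish 1 or 2 and 222, 233 and 295 without R273H dish 1, 2 or 3. Directions turned only for values that were not called. With the coding length and GC trend removed, RRM1 in R273H was -0.011 and RRM2B in G245S against R273H was 0.026. Leaving out a dish moved RRM2 in G245S against R273H between -0.0045 and 0.033, and RRM2B between -0.034 and 0.0026. Intervals cover counting error and the spread of dishes within a pool. The causes were not tested.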

Other observations

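Upstream of ribonucleotide reductase, genes of purine and pyrimidine synthesis were mostly higher in the mutants, by small amounts. Of 18 genes, 14 rose in G245S and 12 in R273H, and 0 fell in either, with a median log2 fold change of 0.13 and 0.15 (edgeR quasi-likelihood test over all genes). Among the 15883 genes at least as abundant as the scarcest of the 18, 15.1% were called higher in G245S and 16.6% in R273H, and among the 6771 genes at least as abundant as RRM2B, 23.6% and 24.2%. CAD, which carries out the first steps of pyrimidine synthesis, rose from 248 CPM in WT to 311 and 306 CPM in the mutants, a log2 fold change of 0.32 (adjusted p 2.91e-10) and 0.30 (adjusted p 7.67e-10). PPAT, which commits to purine synthesis, rose by 0.24 and 0.30, and ADSS2, on the branch to AMP, by 0.24 and 0.22. Over the other alternatives 12 to 14 genes were called higher in G245S and 11 to 14 in R273H, but testing for changes beyond 1.2-fold called 0 of the 18.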
